A study of Mus musculus with 21 samples.

Results

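The 7 genes Tespa1, Abcb5, Rasd1, Fa2h, Klhl6, Neurog2 and Pkd1l3 were followed through the differentiation of mouse erythroid progenitors in culture. They were chosen by symbol, from a table of 22483 genes, as genes with steep losses between 0 h and 12 h that are not feedback genes of the kinase ERK. The choice thus used the values at 0 h and 12 h. The drop between these times is given below as a description, with no test, and supports nothing.

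RNA had been sequenced from MEDEP cells, a red-cell progenitor line made from mouse embryonic stem cells of the BRC5 line. At 0 h the cells were growing with stem cell factor (SCF), which binds the receptor Kit, and the synthetic glucocorticoid dexamethasone. The cells of all later groups had been moved to medium with 4 U/ml erythropoietin (Epo), without SCF and dexamethasone, for 12, 24, 36, 48 or 72 h. In a further 12 h group succinyl acetone (SA), which blocks the making of heme, had been given with Epo. There were 3 libraries in each of the 7 groups, described by the submitters as biological replicates. All libraries come from 1 cell line, and both the loss of SCF and dexamethasone and the gain of Epo separate 0 h from every later group, so their parts cannot be told apart.

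The proteins of these genes belong to unrelated families. Epo acts through its receptor to carry progenitors through their last divisions into hemoglobin-filled red cells, whereas SCF and glucocorticoids keep such progenitors dividing. Tespa1 encodes a protein known from thymocytes, where it binds the IP3 receptor and helps relay calcium signals from the T cell receptor. Klhl6 encodes a BTB-kelch adaptor of the CUL3 ubiquitin ligase that is needed for germinal center B cells. Rasd1 encodes a RAS-like GTPase that was found as a gene induced by dexamethasone. Neurog2 encodes neurogenin 2, a basic helix-loop-helix factor that starts neuronal differentiation. Abcb5 encodes a membrane transporter of the ATP-binding cassette family, and Fa2h the enzyme that adds a hydroxyl group to the fatty acids of sphingolipids. Pkd1l3 encodes a polycystin known from taste cells, where it forms a channel complex with the product of Pkd2l1.

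All 7 are protein-coding genes in GENCODE M21 (GRCm38), spread over 6 chromosomes. Tespa1 (ENSMUSG00000034833.10) spans chr10:130322870-130364111 on the plus strand. Abcb5 (ENSMUSG00000072791.11) spans chr12:118867824-118966421 on the minus strand. Rasd1 (ENSMUSG00000049892.7) is the shortest, with 2 exons at chr11:59963181-59964944 on the minus strand. Fa2h (ENSMUSG00000033579.16) lies at chr8:111345135-111393824 on the minus strand. Pkd1l3 (ENSMUSG00000048827.12) lies on the same chromosome at chr8:109614517-109674386 on the plus strand, 1.67 Mb from Fa2h. Klhl6 (ENSMUSG00000043008.8) spans chr16:19946496-19983037 on the minus strand, and Neurog2 (ENSMUSG00000027967.8) spans chr3:127633135-127635631 on the plus strand.

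Upstream windows of 3 of these genes are printed because the genes dropped together between 0 h and 12 h, and Klhl6 among these 3 later rose again. Each shows the 250 bases before the RefSeq start (GRCm38.p6), 5′ to 3′ on the strand of the gene, and capitals mark every match to the motifs searched. The motifs were those of GATA factors (with the letters AGATAA or, as the other form, TGATAA), ACANNNTGT (the core of a glucocorticoid response element), CAGCTG (an E-box), CACGTG (another E-box), CCGGAAG (ETS factors), TTCNNNGAA (STAT factors) and TGANTCA (AP-1), on both strands. The Abcb5 window is chr12:118966422-118966671, the Klhl6 window chr16:19983050-19983299 and the Neurog2 window chr3:127632886-127633135.
Abcb5: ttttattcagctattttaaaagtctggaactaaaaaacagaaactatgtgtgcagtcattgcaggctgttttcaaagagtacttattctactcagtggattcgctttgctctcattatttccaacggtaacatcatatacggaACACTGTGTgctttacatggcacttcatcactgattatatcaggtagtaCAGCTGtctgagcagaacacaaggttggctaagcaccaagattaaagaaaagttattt
Klhl6: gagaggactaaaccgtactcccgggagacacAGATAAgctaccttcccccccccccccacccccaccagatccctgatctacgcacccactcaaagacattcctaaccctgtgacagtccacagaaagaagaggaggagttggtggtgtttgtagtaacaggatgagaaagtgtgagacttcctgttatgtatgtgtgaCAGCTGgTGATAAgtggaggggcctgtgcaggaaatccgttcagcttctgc
Neurog2: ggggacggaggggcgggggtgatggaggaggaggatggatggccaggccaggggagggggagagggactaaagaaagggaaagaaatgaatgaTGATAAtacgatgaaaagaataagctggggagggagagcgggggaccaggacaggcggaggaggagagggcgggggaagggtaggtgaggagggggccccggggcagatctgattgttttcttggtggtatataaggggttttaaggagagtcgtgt

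The Abcb5 window held ACANNNTGT at 107 and CAGCTG at 58 bases before the start. In the Klhl6 window AGATAA lay 219 bases before the start, and CAGCTG at 51 and TGATAA at 44 bases stood side by side without overlap. The Neurog2 window held 1 TGATAA, 157 bases before the start. None of these motifs is rare: of the 250 bases before the start in 32851 RefSeq windows 9.99% held AGATAA, 7.94% TGATAA, 13% CAGCTG and 5.84% ACANNNTGT. The window of Pkd1l3, the fourth gene matched in the RefSeq table, had no match to any motif searched. Bases just after the RefSeq start were found in a GENCODE transcript for Abcb5, Klhl6 and Neurog2, but not for Pkd1l3. The Pkd1l3 window ends at chr8:109614233, short of the GENCODE start at chr8:109614517, so the bases just before that start were not searched. The windows differed in base composition, with 36.8% G and C in Abcb5, 42% in Pkd1l3, 52.8% in Klhl6 and 58% in Neurog2, against a median of 52.4% over all windows. Matches are letters found in a window and no evidence of binding.

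Libraries held 16.7 to 39.3 M counts, and 12360 genes passed the filter on low counts. All 7 genes passed it, through the 0 h group in which they are high. Normalized counts (CPM, counts scaled to a common library size) below use TMM factors. TPM values, taken as deposited, are scaled for transcript length and to the same total in each library, without TMM factors. Globin transcripts made up 0.0467 to 0.0752% of the counts at 0 h and 31.7 to 37.0% at 72 h, and the scales part as they rise: between 24 h and 36 h the median over tested genes, as a log2 change, was -0.03 on the TMM scale and -1.84 in TPM. In bulk RNA fewer cells expressing a gene and less RNA per cell cannot be told apart. Every library pair of a group differed by more than sampling noise.

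At 0 h the 7 genes ranged from abundant to modest. In TPM, Klhl6 was highest at 203.4 ± 9.82 (mean ± SD, n = 3 here and below), above 94.6% of the tested genes, followed by Rasd1 at 61.9 ± 10.5. Fa2h at 23.8 ± 3.86, Pkd1l3 at 19.8 ± 2.19, Neurog2 at 17.4 ± 0.802, Abcb5 at 15.3 ± 3.58 and Tespa1 at 11.4 ± 2.77 TPM followed. Libraries of neighbors in this order did not overlap for Klhl6 over Rasd1 and for Rasd1 over Fa2h, whereas each later neighbor overlapped the next. These levels lay near the middle of the tested genes, from the 42.4th percentile for Tespa1 to the 57.4th for Fa2h.

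Between 0 h and 12 h, 6 of the 7 genes dropped to a few percent of their start or less. Tespa1 had 3.80, 4.85 and 5.87 CPM in the 0 h libraries and 0, 0 and 0.0495 CPM at 12 h, where the 3 libraries together held 2 counts. The 0 h level was 350.0-fold the 12 h level, with a 95% counting interval of 96.5 to 2895. Both counts were in the 12 h replicate 3, and without it the 0 h level was at least 168-fold higher. Without the 12 h replicate 1 the ratio was 208. Abcb5 had 25.0, 15.4 and 21.9 CPM at 0 h and 0.0855, 0.0440 and 0.198 CPM at 12 h, a log2 difference of -7.59 ± 0.37 (SE), or -8.20 without the 12 h replicate 3. Every 0 h library of both genes was far above every 12 h library.

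Rasd1, the dexamethasone-induced GTPase, had 44.9, 31.1 and 38.6 CPM at 0 h and 0.308, 0.242 and 0.272 CPM at 12 h, which is 0.717% of the 0 h mean. Fa2h had 24.7, 23.5 and 29.8 CPM at 0 h against 0.342, 0.308 and 0.173 CPM at 12 h, or 1.06%. Neurog2 had 16.4, 17.4 and 16.5 CPM at 0 h against 0.445, 0.308 and 0.248 CPM at 12 h, or 1.99%. The 3 genes still had a small number of counts in all at 12 h, 40 for Rasd1, 41 for Fa2h and 50 for Neurog2.

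Klhl6 started highest, with 170.9, 160.2 and 171.7 CPM at 0 h, and had 2.29, 1.30 and 1.96 CPM at 12 h, a log2 difference of -6.49 ± 0.25. Pkd1l3 behaved differently from the name given to the group, since it was not shut off at 12 h. It had 58.8, 48.3 and 53.8 CPM at 0 h and still 12.3, 9.77 and 10.6 CPM at 12 h, which is 20.3% of its start and a log2 difference of -2.30 ± 0.15. All of its 12 h libraries were above those of the other 6 genes in CPM.

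**Figure D1:**
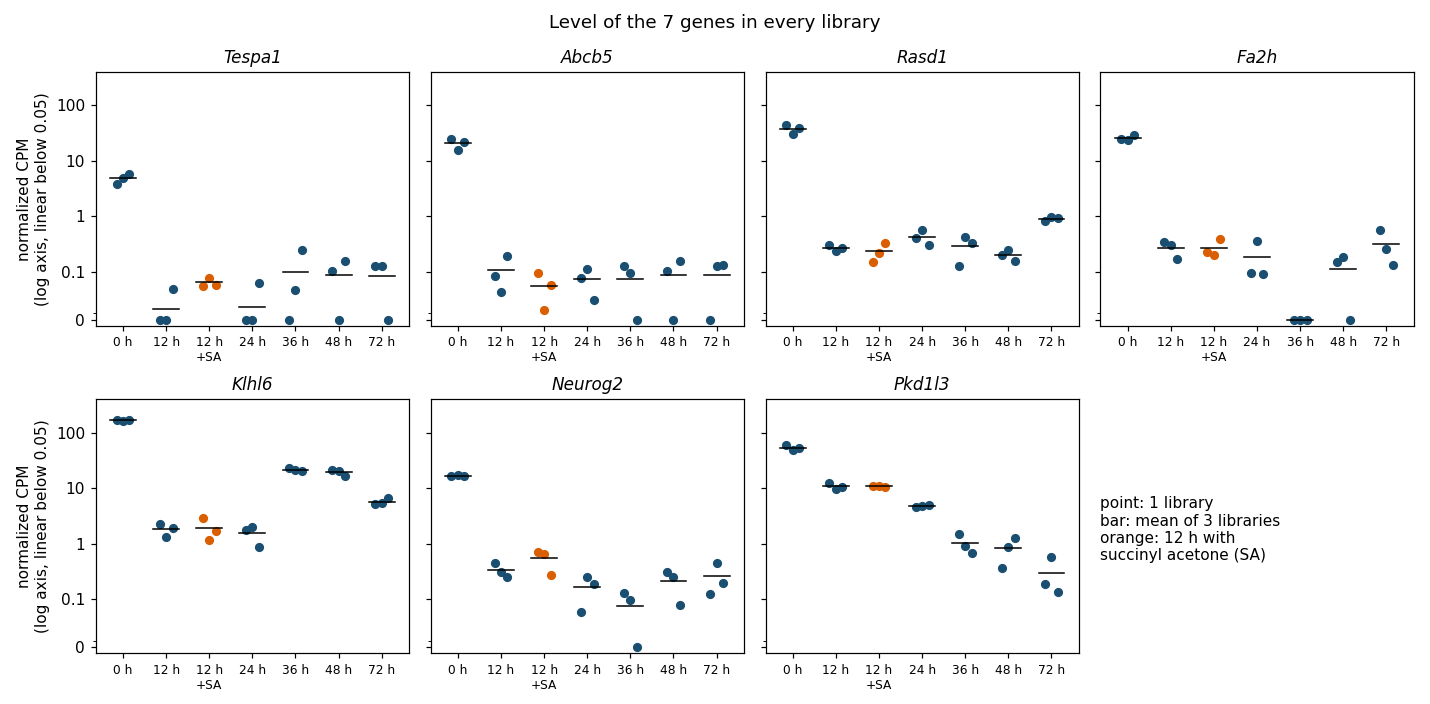
Normalized CPM of the 7 genes in each of the 21 libraries, on a log axis that is linear below 0.05, with a bar at the mean of 3 libraries and the SA group in orange. The panels of 6 genes drop to a few CPM or less at 12 h, Pkd1l3 steps down over the whole course, and Klhl6 is back at 21.4 CPM at 36 h.

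Ranked by the log2 difference between 0 h and 12 h, 6 of the 7 genes were among the 20 steepest falls of the 12360 tested genes, at ranks 2 (Tespa1), 6 (Abcb5), 7 (Rasd1), 9 (Fa2h), 10 (Klhl6) and 17 (Neurog2). The other 14 included Sult6b2 at rank 1 and the ERK-responsive factors Etv4 and Etv5 at ranks 3 and 5. Next to Neurog2 stood Sash3 at -5.77 and Acod1 at -5.52. Pkd1l3 was at rank 201, with 1.62% of the tested genes falling further, between Necab2 and Fndc10. Lower calls at 12 h made up 27.6% of all tested genes, and the libraries of 67.7% did not overlap between 0 h and 12 h. The choice of the 7 fixes both properties for them.

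With SA the genes were low as well. Against 0 h, the log2 differences in the SA group were -6.13 ± 0.53 for Tespa1, -8.49 ± 0.39 for Abcb5, -7.33 ± 0.22 for Rasd1, -6.57 ± 0.32 for Fa2h, -6.47 ± 0.25 for Klhl6, -4.91 ± 0.30 for Neurog2 and -2.32 ± 0.15 for Pkd1l3. This comparison uses the same 0 h libraries as the one with 12 h of Epo alone.

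Blocking heme synthesis for 12 h gave no called change in any of the 7 genes against Epo alone. The test was edgeR's quasi-likelihood test over all tested genes, with an adjusted p (Benjamini-Hochberg) of at most 0.05 as the threshold. It called 0.38% of all genes, 47 in number (84 with the replicate number as a block, which paired the libraries here), and 0 of these 7. None of the 7 had an unadjusted p under 0.05 in edgeR, and DESeq2 called 0 as well. The 12 h libraries of this test had taken part in the choice of the genes.

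The interval of the SA difference was narrowest for Pkd1l3, followed by Klhl6, the genes with the most counts. Pkd1l3 had 10.9, 10.8 and 10.7 CPM with SA against 12.3, 9.77 and 10.6 without it, a log2 difference of -0.02 ± 0.15 with a 95% interval of -0.34 to 0.30. Klhl6 had 2.86, 1.16 and 1.71 CPM with SA against 2.29, 1.30 and 1.96 without, a log2 difference of 0.02 ± 0.26 with an interval of -0.53 to 0.57. For both, the libraries of the groups overlapped.

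Neurog2 had 0.705, 0.661 and 0.275 CPM with SA against 0.445, 0.308 and 0.248 CPM without it. In 2 of the 3 SA libraries it was above all 12 h libraries, and the third lay among them. Its log2 difference of 0.68 ± 0.37 had an interval of -0.08 to 1.45 and an edgeR adjusted p of 0.895. Tespa1 had 3, 5 and 3 counts with SA against 0, 0 and 2 without it. These libraries did not overlap, as for 24.2% of all tested genes, and the ratio was 4.75 with a counting interval of 1.04 to 44.1, without a call (edgeR adjusted p = 0.900). Without the 12 h replicate 1 the ratio was 2.83 (0.617 to 26.2), and without the 12 h replicate 3 Tespa1 was at least 2.28-fold higher with SA. Neither was called. Rasd1 (-0.24 ± 0.33, interval -0.93 to 0.45), Fa2h (-0.06 ± 0.44, -0.97 to 0.86) and Abcb5 (-0.91 ± 0.71, -2.38 to 0.57) overlapped between the groups.

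**Figure D2:**
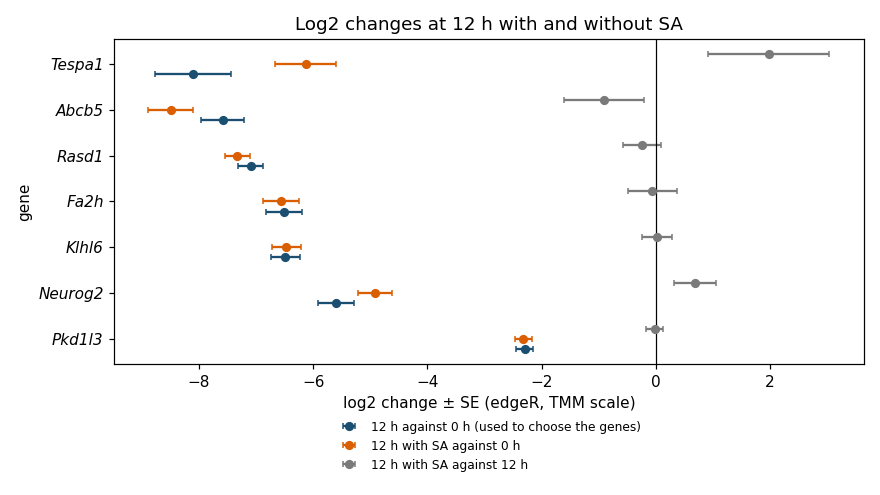
Log2 change with its standard error for each gene (edgeR, TMM scale), for 12 h against 0 h (blue), 12 h with SA against 0 h (orange) and 12 h with SA against 12 h (gray). The gray points lie near 0 for Klhl6 and Pkd1l3, and the widest bar is that of Tespa1, which rests on 11 and 2 counts.

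After 12 h the genes parted. Tespa1, Abcb5 and Neurog2 stayed near the limit of detection, Fa2h fell to 0 counts at 36 h, Rasd1 rose from a very low level at 72 h, Klhl6 rose at 36 h, and Pkd1l3 went on falling. A test for any difference between 24, 36, 48 and 72 h called 4 of the 7 genes, against 92.5% of all tested genes. The edgeR adjusted p was 1.87e-11 for Klhl6, 1.46e-10 for Pkd1l3, 0.000652 for Rasd1 and 0.0160 for Fa2h, and 0.267 for Tespa1, 0.320 for Neurog2 and 0.999 for Abcb5. The call for Fa2h was lost with limma on log2(TPM + 1) at an adjusted p of 0.337 and without the 36 h replicate 2 at 0.0579. Neurog2 was called with limma on log2(TPM + 0.1), at an adjusted p of 0.00606.

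Tespa1 had between 0 and 3 counts in each of the 12 libraries from 24 h to 72 h, with 0, 0 and 2 at 24 h and 2, 2 and 0 at 72 h. Abcb5 had between 0 and 5 counts, with 4, 5 and 1 at 24 h and 0, 2 and 2 at 72 h. Neither gene was called between neighboring late times in edgeR with all libraries. Tespa1, with 0, 1 and 3 counts at 36 h, was called higher at 36 h than at 24 h without the 24 h replicate 3 (edgeR adjusted p = 0.0301), which leaves 0 counts at 24 h. At 72 h the mean levels were 0.0855 CPM for Tespa1 and 0.0877 CPM for Abcb5, against 4.84 ± 1.04 and 20.8 ± 4.90 CPM at 0 h.

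Neurog2, the neuronal bHLH gene, had 3, 11 and 6 counts at 24 h, 2, 2 and 0 at 36 h, 6, 4 and 1 at 48 h and 2, 7 and 3 at 72 h. From 12 h to 24 h its level went from 0.333 to 0.165 CPM, a log2 difference of -1.09 ± 0.48 that missed the threshold in edgeR (adjusted p = 0.0725). DESeq2 called it (adjusted p = 0.0440), as did edgeR without the 24 h replicate 2 (adjusted p = 0.0383). The step of Fa2h from 12 h to 24 h, -0.57 ± 0.50, was called only without that library (edgeR adjusted p = 0.0474). Fa2h had 5, 16 and 3 counts at 24 h and 0 in all 3 libraries at 36 h, which allows a level of up to 0.0623 CPM over the group. It was thus at least 3.02-fold lower at 36 h than at 24 h (edgeR adjusted p = 0.00975). The 24 h replicate 2 held 16 of the 24 counts at 24 h, and without it Fa2h was at least 1.54-fold lower (edgeR adjusted p = 0.0319). Without 1 of the 36 h libraries the bound was 1.72 to 2.27. This call was lost with limma on log2(TPM + 1), at an adjusted p of 0.113. At 48 h Fa2h was back at 3, 3 and 0 counts and at 72 h at 9, 4 and 2, and neither step was called by edgeR (adjusted p = 0.0646 and 0.173).

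Klhl6, the BTB-kelch adaptor of B cells, rose at 36 h. It had 1.80, 1.97 and 0.873 CPM at 24 h and 23.0, 20.99 and 20.1 CPM at 36 h, so that every 36 h library was more than any 24 h library. The log2 difference was 3.74 ± 0.25 with an interval of 3.22 to 4.26 (edgeR adjusted p = 3.48e-11). In TPM the rise was smaller, from 1.52 ± 0.667 to 4.62 ± 0.325 TPM, a ratio of 3.05. Higher calls made up 34.1% of all tested genes in this comparison.

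At 48 h Klhl6 had 21.3, 20.7 and 16.6 CPM, a log2 difference of -0.12 ± 0.21 from 36 h that was not called on the TMM scale. In TPM, with the median gene also lower (log2 change -0.47), Klhl6 was lower at 48 h, at 2.56 ± 0.228 (limma on log2(TPM + 1), log2 change -0.66, adjusted p = 0.00550). At 72 h it had fallen to 5.26, 5.38 and 6.54 CPM, a log2 difference of -1.78 ± 0.24 from 48 h (edgeR adjusted p = 2.09e-06), where lower calls made up 34.5% of all tested genes. The peak at 36 h was 12.8% of the 0 h level in CPM and 2.27% in TPM.

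The 36 h replicate 1 stood apart in the summed level of 9 stromal markers, at 26.3 CPM against at most 0.418 CPM in the other 36 h libraries. Without it the Klhl6 rise was 3.69 on the log2 scale, and the rise and the fall at 72 h were called in all 16 alternatives.

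**Figure D3:**
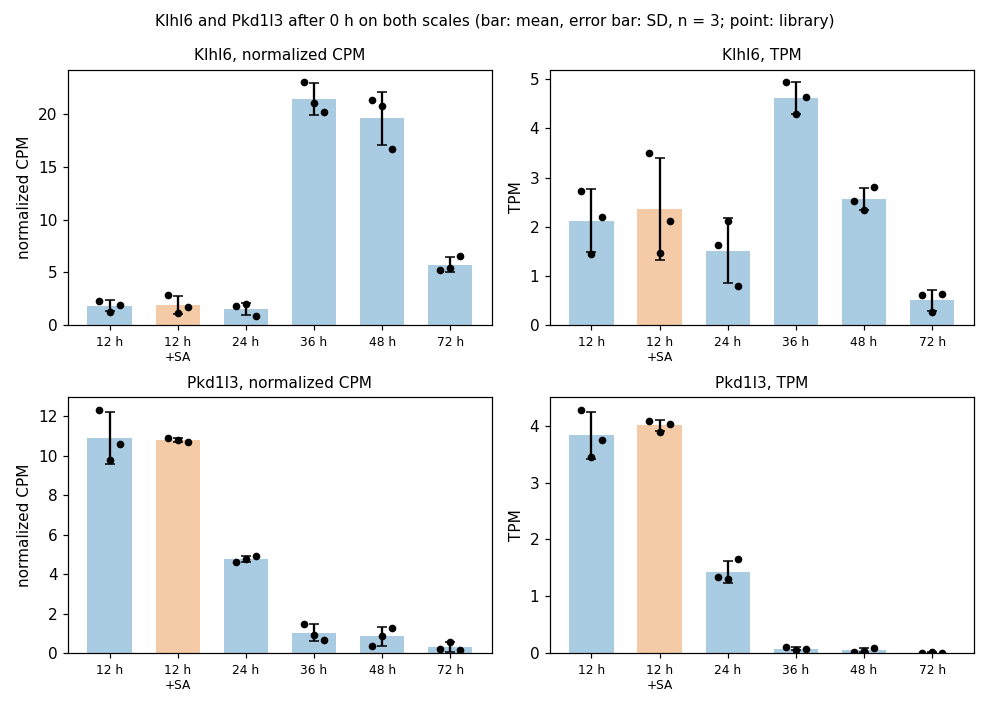
Klhl6 (top) and Pkd1l3 (bottom) after 0 h, in normalized CPM (left) and TPM (right), with bars at the mean of 3 libraries, error bars of 1 SD and a point per library. Klhl6 is highest at 36 h on both scales, at 21.4 ± 1.48 CPM and 4.62 ± 0.325 TPM, whereas Pkd1l3 steps down.

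Pkd1l3 kept falling after 12 h. It had 4.60, 4.75 and 4.90 CPM at 24 h, below all 12 h libraries, a log2 difference of -1.20 ± 0.16 (edgeR adjusted p = 6.26e-06). It was the only one of the 7 genes called between 12 h and 24 h, against 41.1% of all tested genes, in a test that again uses the 12 h libraries. At 36 h it had 1.49, 0.915 and 0.669 CPM, a log2 difference of -2.19 ± 0.25 (edgeR adjusted p = 1.34e-07), again without overlap. At this step 3 of the 7 genes were called (Klhl6, Pkd1l3 and Fa2h), against 73.2% of all tested genes.

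From 36 h to 48 h none of the 7 genes was called in edgeR, against 49.8% of all tested genes. Fa2h alone had an unadjusted p under 0.05, and DESeq2 called it with an adjusted p of 0.0181. Pkd1l3 had 0.359, 0.877 and 1.28 CPM at 48 h and 0.190, 0.583 and 0.134 CPM at 72 h. The log2 difference of -1.35 ± 0.50 rests on 14 against 37 counts with overlapping libraries (edgeR adjusted p = 0.0261). This call was lost without the 48 h replicate 2 or 3 or the 72 h replicate 1 or 3, and with the compared libraries alone (adjusted p = 0.136), and the difference was -2.24 without the 72 h replicate 2. By 72 h Pkd1l3 differed from 0 h by -7.45 on the log2 scale, with a mean of 0.302 ± 0.245 CPM (-8.34 on that scale without the 72 h replicate 2).

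Rasd1 had 0.411, 0.565 and 0.312 CPM at 24 h, all above the 12 h libraries, with a log2 difference of 0.66 ± 0.31 that was not called (edgeR adjusted p = 0.0961). At 48 h it had 4, 4 and 2 counts and at 72 h 13, 15 and 14, that is 0.205 ± 0.0453 and 0.910 ± 0.0773 CPM. Every 72 h library was above every 48 h library, and the log2 difference was 2.11 ± 0.44 (edgeR adjusted p = 0.000343), where higher calls made up 24.7% of all tested genes. In TPM its level went from 0.0381 ± 0.00274 to 0.105 ± 0.0257, and limma on log2(TPM + 1) did not call it (adjusted p = 0.498). The difference of Rasd1 between 24 h and 36 h was not called by edgeR (-0.49 ± 0.40, adjusted p = 0.275), whereas in TPM, with the median gene also lower, it was called lower (-1.77 with a pseudocount of 0.1). Between 48 h and 72 h, 3 of the 7 genes were called (Rasd1, Klhl6 and Pkd1l3), against 59.2% of all tested genes.

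Lists of relatives and partners of the 7 genes were counted between 0 h and 12 h. Over all tested genes the median log2 difference was -0.01 and 52.9% were called. Among 17 tested targets of the glucocorticoid receptor, the list closest to Rasd1, 12 fell, 2 rose and 3 did not pass, with a median of -1.32. Sgk1, a kinase, fell from 82.1 ± 10.95 to 7.71 ± 0.234 CPM (-3.41 ± 0.13), and Zfp36l2, an mRNA-decay factor needed for progenitor self-renewal, from 724 ± 17.4 to 73.8 ± 6.54 CPM (-3.29 ± 0.15). Dusp1, a MAP kinase phosphatase, rose from 3.64 ± 1.22 to 87.1 ± 14.1 CPM (4.58 ± 0.20), and Zfp36 rose by 0.70 ± 0.25.

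Of 16 tested genes of Kit and ERK signaling 10 fell, 3 rose and 3 did not pass, with a median of -2.39. The factor Etv4 went from 8.42 ± 0.389 to 0.0330 CPM, and Etv5 from 37.2 ± 0.551 to 0.184 ± 0.0535 CPM (-7.66 ± 0.29). Of 10 stem and progenitor regulators 7 fell, 2 rose and 1 did not pass, with a median of -1.46. Myb, a factor that keeps progenitors immature, fell from 373 ± 11.6 to 26.1 ± 2.51 CPM (-3.84 ± 0.21), and Hhex fell by 4.19 on the log2 scale. Spi1 and Runx1, factors of other blood lineages and of stem cells, rose by 1.68 and 1.32 on that scale.

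Of 11 tested genes of IP3 receptor and antigen receptor signaling, the setting in which Tespa1 is known, 7 fell, none rose and 4 did not pass, with a median of -0.56. The adaptor Grb2 fell from 167 ± 8.68 to 60.3 ± 4.79 CPM (-1.47 ± 0.08), and the IP3 receptor Itpr3 from 2.97 ± 0.416 to 1.26 ± 0.283 CPM (-1.24 ± 0.24). Of the 8 tested relatives of Abcb5 none fell, 4 rose and 4 did not pass. The mitochondrial transporter Abcb10, known in erythroid cells, rose from 93.4 ± 4.41 to 665 ± 8.09 CPM (2.83 ± 0.07), and Abcb6, a porphyrin transporter, from 54.0 ± 1.90 to 158 ± 8.46 CPM (1.55 ± 0.10).

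Of 12 genes of ceramide and sphingolipid synthesis, the pathway of Fa2h, 5 fell, 2 rose and 5 did not pass, with a median of -0.38. Ugcg, which makes glucosylceramide, fell from 184 ± 7.37 to 63.4 ± 3.51 CPM (-1.54 ± 0.14), and the ceramide synthase Cers2 rose by 0.47 ± 0.14. Of 25 KLHL adaptors with CUL3 and RBX1, the relatives and partners of Klhl6, 9 fell, 5 rose and 11 did not pass, with a median of -0.21. Among the called genes Klhl24 had the lowest log2 difference, at -1.17 ± 0.17, and Klhl12 the highest, at 0.94 ± 0.11. Of the small RAS-like GTPases 2 were tested: Rasl11a rose by 3.29 ± 0.17 and Rasl12 fell by 1.07 on the log2 scale. Rasl12 was low, with 0.736 TPM at 0 h and 0.356 TPM at 12 h. Its call was kept in 12 of 14 alternatives and could be lost without 1 library. Of the neural bHLH factors and neurogenin targets 3 were tested, and Rnd2, a GTPase that acts after neurogenin 2 in migrating neurons, rose by 0.55 ± 0.10.

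Among 5 tested polycystins 1 fell, 2 rose and 2 did not pass. The one that fell was Pkd2l1, the channel partner of the Pkd1l3 product. It had 36, 17 and 40 counts at 0 h and 0, 0 and 1 at 12 h, so the 0 h level was 92.1-fold the 12 h level with a counting interval of 16.1 to 3675. Without the 12 h replicate 3, which held the single count, it was at least 22.1-fold higher, and without the 12 h replicate 1 the ratio was 54.8. Pkd2l1 was far lower than Pkd1l3 at 0 h (0.451 ± 0.128 against 19.8 ± 2.19 TPM), and at 12 h Pkd1l3 still had 3.83 ± 0.420 TPM. Pkd2l2 rose from 1.19 ± 0.185 to 4.41 ± 0.450 CPM (1.89 ± 0.17). Pkd1l1, the other that rose, had 1 count in all at 0 h and 32 at 12 h, a ratio of 32.3 with a counting interval of 5.40 to 1316. Its log2 difference of 4.43 lay between 3.96 and 5.93 without 1 library.

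**Figure D4:**
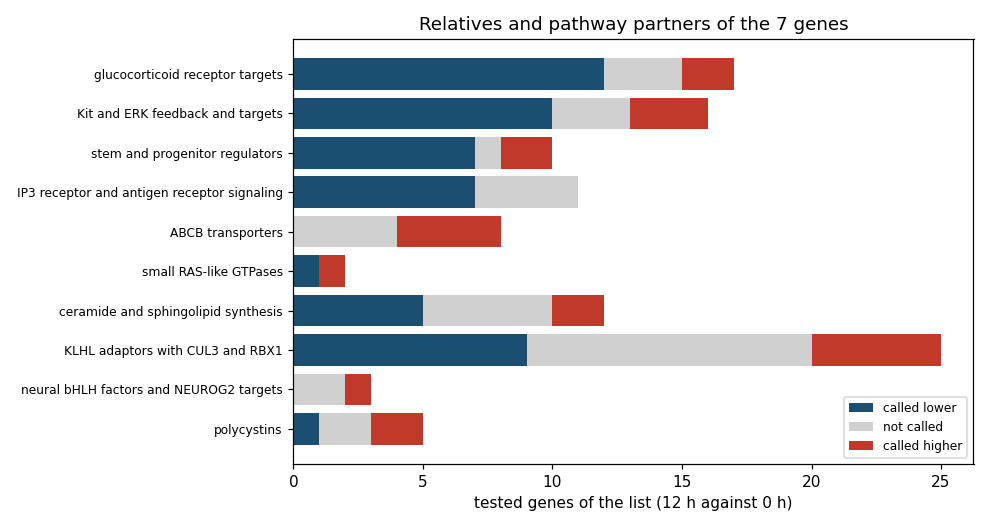
Number of tested genes of each list called lower (blue), not called (gray) or called higher (red) at 12 h against 0 h (edgeR, adjusted p of at most 0.05). Lower calls outnumber higher ones in the glucocorticoid, Kit and ERK, progenitor, IP3 receptor, ceramide and KLHL lists. The lists of ABCB transporters and of neural bHLH factors have no lower call.

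The nearest tested genes on either side of the 7 were also measured. Of 13 nearest tested neighbors 5 fell between 0 h and 12 h, 1 rose and 7 did not pass. Over all tested genes 52.9% were called in this comparison, and lower calls made up 27.6% of all tested genes. The largest fall of a neighbor was that of Dhodh beside Pkd1l3, at -1.60 ± 0.13. Med9, whose end lies 0.976 kb from Rasd1, went from 26.2 to 15.3 CPM (-0.78 ± 0.09). Ist1 overlaps the end of Pkd1l3 by 3062 bases on the opposite strand and had 46.8 and 44.0 CPM at 0 h and 12 h (-0.09 ± 0.08, not called). The gene next to Klhl6 at higher coordinates, 114.5 kb away, is its relative Klhl24, which had 48.0 ± 2.09 CPM at 0 h, 21.3 ± 3.07 at 12 h, 19.4 ± 2.25 at 24 h, 155 ± 40.7 at 36 h, 292 ± 55.0 at 48 h and 512 ± 88.6 at 72 h. In CPM Klhl24 rose by 3.01 between 24 h and 36 h on the log2 scale and, unlike Klhl6, was at its highest mean at 72 h. In TPM its rise was smaller, from 6.60 ± 0.852 at 24 h to 12.2 ± 2.09 at 36 h. The 72 h mean of 15.0 ± 3.55 TPM was below the 21.4 ± 1.44 TPM of Klhl24 at 0 h. Between these times the median gene fell much further in TPM, with a median log2 change of -3.27, against -0.13 on the TMM scale.

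Over the 7 group means, the profiles of Tespa1, Abcb5, Rasd1, Fa2h and Neurog2 were alike, with Pearson's r of log2(CPM + 0.5) between 0.972 and 0.997. Klhl6 had r of 0.215 with Pkd1l3 and up to 0.818 with the others, and Pkd1l3 had r of up to 0.767. These are descriptions over 7 points, in which the high 0 h point is shared by the choice of the genes. Among 9438 other genes, those most like Tespa1 were Sult6b2, Etv4 and Sash3, and most like Abcb5 Sash3, Etv4 and Upk1b. Rasd1 was nearest to Polg, Slc17a4 and Sult6b2, Fa2h to Slc17a4, Zbtb16 and Upk1b, and Neurog2 to Dusp2, Nckap1 and Szrd1. Polg for Rasd1, Slc17a4 and Zbtb16 for Fa2h, and Nckap1 for Neurog2 were not among the 3 nearest over the 21 libraries or on log2(TPM + 1). A high r does not mean a drop of like size. Polg had 211.5 CPM at 0 h and 77.9 at 12 h, and Szrd1 79.6 and 36.4, whereas Dusp2 had 1.065 and 0.0586. The profile nearest to Klhl6 was less close, with r of 0.967 for Fam198b, which had 47.1, 2.80, 3.12 and 7.28 CPM at 0, 12, 24 and 36 h. In TPM Fam198b did not rise at 36 h, with 1.47 ± 0.363 at 24 h and 0.894 ± 0.233 at 36 h. Fam198b was again nearest to Klhl6 over the 21 libraries in CPM, but not among the 3 nearest on log2(TPM + 1). Pkd1l3 was nearest to Arhgap15 (r = 0.999), a gene with 28.4, 8.41, 4.19 and 1.34 CPM at 0, 12, 24 and 36 h. Arhgap15 was not among the 3 nearest to Pkd1l3 over the 21 libraries or on log2(TPM + 1).

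The line could hold other cells, and their markers were measured beside the 7 genes. The sum of 10 erythroid markers was 638 to 774 CPM at 0 h and 10703 to 11770 at 12 h, with none at 0. Markers of T cells, where Tespa1 is known, summed to 1.80 to 2.02 CPM at 0 h and 8.58 to 11.7 at 12 h, with Cd3g at 0 in both. Lck, a kinase of T cells, made up most of the sum at 12 h, with 0.622 CPM at 0 h and 9.09 at 12 h. Trac (0.0249 and 0.482) was higher at 12 h as well, as were Cd4 (0.00846 and 0.0165), Zap70 (0.0125 and 0.0229) and Rag1 (0 and 0.01965), all 3 near the limit of detection. The means of Cd3d (0.773 and 0.391), Ptcra (0.318 and 0.249), Cd8a (0.177 and 0.0949) and Cd3e (0.00636 and 0) were lower at 12 h. Neural markers summed to 53.9 to 55.9 CPM at 0 h and 51.4 to 72.1 at 12 h, with Sox1 and Map2 at 0 in both. The sums hide opposite courses, since Pax6, a factor of neural progenitors, had 50.3 CPM at 0 h and 12.2 at 12 h and Tubb3, a tubulin of neurons, 4.24 and 46.2 CPM, and their part in the drop of Neurog2 was not tested. Mast cell markers summed to 971 to 1044 CPM at 0 h and 93.2 to 113 CPM at 12 h, most of it Kit, with 985.9 and 94.2 CPM. Ms4a2 (7.75 and 0.94), Cpa3 (3.72 and 1.145) and Tpsb2 (0.0189 and 0) also had lower means at 12 h. Those of Cma1 (4.00 and 4.81), Mcpt4 (0.042 and 0.427) and Fcer1a (0 and 0.296) were higher. The part of mast cell markers in the drop of the 7 genes was not tested. Pluripotency markers summed to 0.840 to 1.19 CPM at 0 h, with Sox2 at 0.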

How the data were processed

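Strand-specific sequencing of polyadenylated RNA from 21 libraries of MEDEP cells in 7 groups of 3 was used. The authors deposited estimated counts per gene, not scaled for depth (78.5% whole numbers, tolerance 1e-06), and a table of TPM per gene. The tools DESeq2, kallisto and STAR 2.5.3a and the builds mm10 and GRCm38.p5 are named, per the submitters' processing notes. Which tool made which table is not given in the sources used here.

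Estimated counts were rounded. Genes passing filterByExpr (minimum count 10) were fitted in 1 edgeR 4.0.16 quasi-likelihood model of all 21 libraries, TMM-scaled, in R 4.3.3, with Benjamini-Hochberg adjustment over 12360 genes and 2-sided tests. The SE is |log2 change| over the root of the F statistic. For a group with 0 counts, a bound was computed from 3 counts in the whole group. Counting intervals are exact (95%); they and this bound cover counting error only. The pipeline was tested on simulated data. Alternatives used DESeq2 1.42.0 and limma 3.58.1 on log2(TPM + 1) or log2(TPM + 0.1).

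Named genes were all 7 members, for each member the 3 most alike profiles among genes with at least 1 CPM at 0 h and the nearest tested neighbors, and up to 2 called genes per direction of each list. Members, lists and tests were chosen with earlier results of these data known. Genes of the fall ranking were named after their values were seen. Positions came from GENCODE M21, where 12351 of 12360 tested IDs were found. Promoter windows came from RefSeq, where 4 of the 7 genes matched. Same-numbered libraries deviated from their group means together (every r above 0.1, over 7242 genes) for 12 h with and without SA (0.358 to 0.429), 12 and 24 h (0.318 to 0.503), 36 and 48 h (0.160 to 0.478) and 48 and 72 h (0.370 to 0.389). What such a number stands for is not given in the labels. The result of the list of B cell markers is not reported here.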

Additional observations from a re-analysis of the deposited data

How the results depend on the processing

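Of the 560 alternative values for the 7 genes in the 5 comparisons after the choice, 533 kept their side of the threshold, 15 passed it only in the alternative and 12 lost it. The sign differed in 60, all of values not called in either fit. Depth limits Tespa1 and Abcb5, with 0 to 5 counts per library from 24 h on. The number of the 7 called between 12 h and 24 h was 1, but 2 with DESeq2, with limma on log2(TPM + 0.1) and with limma on all genes above 0, and 1 to 3 without 1 library (3 without the 24 h replicate 2). Between 24 h and 36 h it was 3, but 5 with limma on log2(TPM + 0.1), and 3 to 4 without 1 library. Between 36 h and 48 h it was 0, but 1 with DESeq2 and with each of the 3 limma fits on TPM, and 0 to 1 without 1 library (1 without the 48 h replicate 3). Between 48 h and 72 h it was 3, but 1 with limma on log2(TPM + 1) with and without the TPM filter, and 2 to 3 without 1 library. The cause of these moves was not tested. Over all genes, the 47 calls with SA became 74 without the count filter, 446 with the compared libraries alone, 151 with DESeq2, 16 with limma on log2(TPM + 0.1), 114 with limma without the TPM filter and 27 at a fold of at least 2, and 11 to 31 without 1 of the libraries. None of these called any of the 7. A fold of at least 2 left 1165 of 5079 calls between 12 h and 24 h, 5089 of 9044 between 24 h and 36 h, 1637 of 6153 between 36 h and 48 h, 3152 of 7322 between 48 h and 72 h, 2193 of 6539 at 12 h against 0 h and 1981 of 6225 with SA against 0 h. With limma on log2(TPM + 0.1) the last pair became 3724 and 3296. The replicate number as a block raised the SA calls to 84 and changed no call of the 7 genes in any comparison.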
